A study of Planococcus citri with 8 samples.

Results

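The genes described are the *Planococcus citri* gene models whose deposited InterPro entry names juvenile hormone binding, a nuclear hormone receptor or an insulin-like peptide. The rule reads InterPro entries only. Of the 17669 gene models in the annotated table of the series, 53 met the rule, and the full count table holds 40620. They comprised 25 models with the haemolymph juvenile hormone binding entry, 25 with a nuclear hormone receptor entry and 3 with the insulin-like entry. Among the 25 receptor models, 17 were listed under the receptor-type zinc finger, which contacts DNA, and 8 under the ligand-binding domain. The table gives at most 1 entry per model, so a model listed under 1 of these domains may also encode the other. Models are called here by their identifiers in the *Pcitri*.v1 annotation, since the files give them no gene names.

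Polyadenylated RNA of adult citrus mealybug females was sequenced, with 4 virgin and 4 mated pools of about 150 whole insects each. All females descended from the same laboratory colony, kept in darkness on lemons. Virgin females came from lemons from which male cocoons were taken off by hand, whereas mated females were picked from the main colony once ovisacs with fertilized eggs were seen. Mating, egg laying and rearing on separate lemons therefore cannot be told apart in this comparison, and no source used here gives the age of the females. The design text calls the pools biological replicates. The labels number the virgin replicates 2, 3, 5 and 6 and the mated replicates 8, 9, 10 and 11, and values are given below in that order.

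Juvenile hormone is a sesquiterpenoid made by the corpora allata, small glands behind the insect brain. It holds larvae in the juvenile state and in many adult insects promotes yolk production and egg maturation. In the haemolymph it travels bound to carrier proteins. The InterPro entry for this binding covers the haemolymph carriers described in moths together with relatives such as the takeout protein of *Drosophila*, which has been tied to feeding and courtship, so an entry does not show that a given protein carries the hormone. Nuclear hormone receptors are transcription factors that bind DNA through a zinc finger and small lipophilic ligands through a separate domain, and the ecdysone receptor of the moulting hormone and its partner ultraspiracle are members. Insulin-like peptides report the nutritional state and in several insects act on egg production.

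The libraries held 29667566 to 50301861 counted read pairs, so that 3 counts corresponded to 0.0596 to 0.101 CPM (counts scaled to library size). Virgin replicate 2 stood apart from the other virgin libraries. On the first principal component of all tested genes, which held 76.9% of the variance, it lay at -8.55, between the other virgin libraries at -152.6 to -131.1 and the mated libraries at 83.3 to 139.0. For 77.5% of all tested genes its level was outside the range of the other 3 virgin libraries. Its yolk and lipoprotein genes summed to 25056 CPM, against 2985 to 6363 CPM in the other virgin and 64492 to 136760 CPM in the mated libraries. Most of these yolk and lipoprotein genes carry the lipase/vitellogenin entry, which joins lipases and vitellogenins. The muscle genes of virgin replicate 2 summed to 4767 CPM, against 10536 to 11468 CPM and 2089 to 3877 CPM. The sperm tail and axoneme list held 3 models, all with dynein heavy chain entries, which do not name sperm. These summed to 11.04 to 32.6 CPM in virgin and 4.89 to 7.70 CPM in mated libraries. Homeobox genes summed to 369 to 395 CPM and 527 to 633 CPM. Insect cuticle genes summed to 562 CPM in virgin replicate 2, 2693 to 10427 CPM in the other virgin and 789 to 1400 CPM in the mated libraries. No gene of these lists was at 0 in every library of a group, and the part of these lists in the results below was not tested. In pooled whole insects, fewer cells of a type and less RNA per cell cannot be told apart.

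Of the 25 juvenile hormone binding genes, 9 were higher and 3 lower in virgin than in mated females, and 13 did not pass the test (edgeR's quasi-likelihood test, Benjamini-Hochberg adjusted p under 0.05 over 21179 tested genes). The share that was higher, 36.0%, compares with 26.4% of all tested genes, and the share that was lower, 12.0%, with 21.3%. Over the tested genes of the annotated table alone, from which the family was drawn, these shares were 27.7% and 22.4%. In either direction 48.0% of them were called, against 47.7% of all tested genes and 50.1% of those in the annotated table. Their changes were wide in both directions, from a log2 fold change (virgin over mated) of -3.19 to 4.03, with a median of 1.07 where the median over all tested genes was 0.03. A log2 fold change beyond 1 in either direction was fitted for 16 of the 25 (64.0%) against 34.1% of all tested genes, and beyond 2 for 12 (48.0%) against 16.3%. In 10 of the 25 no virgin library overlapped the mated range, which was 40.0% of them, 43.2% of all tested genes and 45.5% of those in the annotated table. The virgin libraries also varied more among themselves in this family. The median coefficient of variation was 0.57 in the virgin group and 0.40 without virgin replicate 2, against 0.27 and 0.16 over all tested genes. In the mated group it was 0.30, against 0.16.

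**Figure D1:**
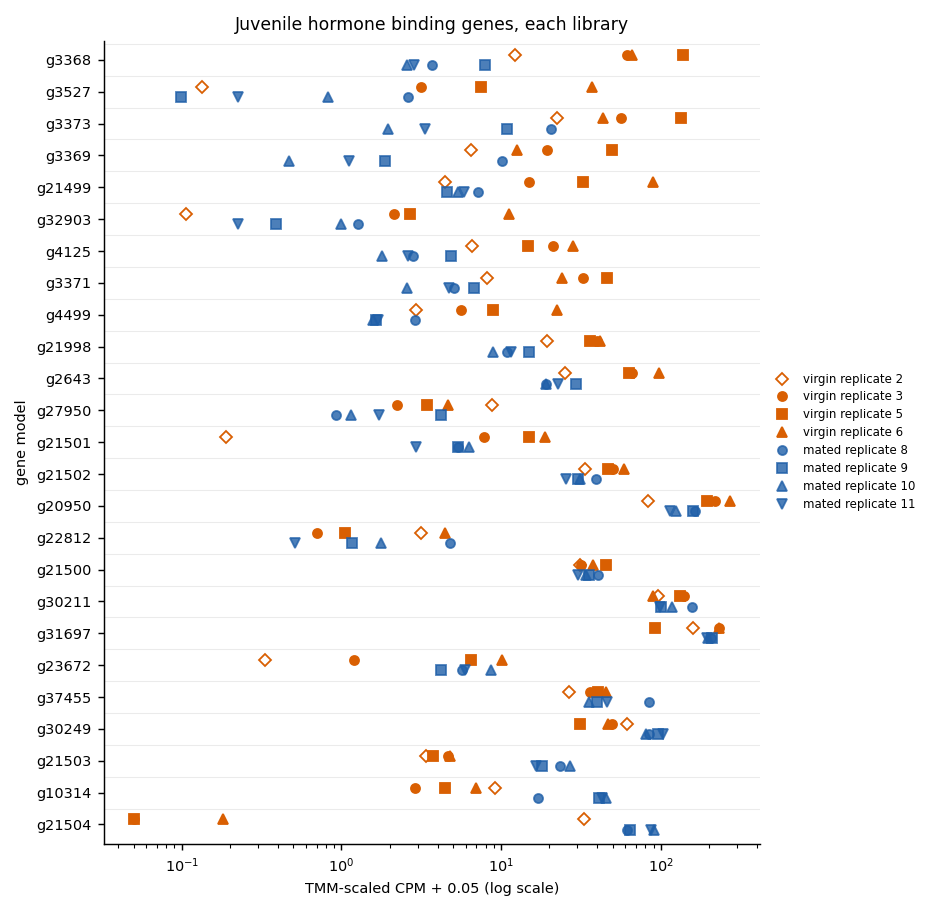
TMM-scaled CPM plus 0.05 (log axis) of the 25 juvenile hormone binding genes in each library, sorted by log2 fold change, with virgin libraries in orange and mated libraries in blue. Virgin replicate 2 (open diamonds) is the lowest virgin library for 18 of the 25 genes, and g21504 is at 0 in virgin replicates 3 and 5, drawn on top of each other.

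The gene with the largest rise was g3368, which lies on a scaffold with 3 other models of the family. It held 12.2, 61.1, 137 and 65.7 CPM in the virgin and 3.62, 7.90, 2.52 and 2.81 CPM in the mated libraries, scaled by the trimmed mean of M-values (TMM) as are all CPM given here. Every virgin library was above every mated one, and virgin replicate 2 was the closest to them. The mean was 69.0 ± 51.4 CPM (SD, n = 4) against 4.21 ± 2.50 CPM (n = 4), a log2 fold change of 4.03 (SE 0.65, edgeR adjusted p = 0.00347).

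Scaffold PCITRI_01447 carries g3368, g3369, g3371 and g3373, that is 4 of its 10 gene models. The levels of g3371 were 8.09, 32.6, 45.9 and 23.9 CPM in virgin and 4.98, 6.73, 2.54 and 4.69 CPM in mated libraries, without overlap (log2 fold change 2.54, SE 0.49, edgeR adjusted p = 0.00539). For g3373 they were 22.2, 56.2, 134 and 43.2 CPM in virgin and 20.4, 10.8, 1.92 and 3.27 CPM in mated libraries. The groups did not overlap, but virgin replicate 2 exceeded mated replicate 8 by little. Its log2 fold change was 2.81 (SE 0.78, edgeR adjusted p = 0.0233). That call was lost without virgin replicate 5 (2.14, adjusted p = 0.0613) or without mated replicate 11 (2.52, adjusted p = 0.0606), and the fold change was 3.57 without mated replicate 8. The remaining model, g3369, had 6.43, 19.4, 49.4 and 12.5 CPM in virgin and 10.1, 1.83, 0.416 and 1.07 CPM in mated libraries, and mated replicate 8 fell inside the virgin range. Its log2 fold change of 2.72 (SE 0.97) did not pass the test (edgeR adjusted p = 0.0568). It passed without virgin replicate 2 (3.01, adjusted p = 0.0324) and without mated replicate 8 (4.30, adjusted p = 0.00931). With all libraries it passed in DESeq2 (adjusted p = 0.00703), limma voom (0.0246) and voom with quality weights (0.00198).

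The 4 models shared the order of the virgin libraries at its ends, with virgin replicate 5 the highest and virgin replicate 2 the lowest for each of them. Of the other 6 models on this scaffold 5 were tested, of which 2 were higher in virgin females and the other 3 were not called. Only uniquely mapped read pairs were counted, and how alike these neighbouring models are in sequence was not tested, so reads from close copies may have been lost or split.

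**Figure D2:**
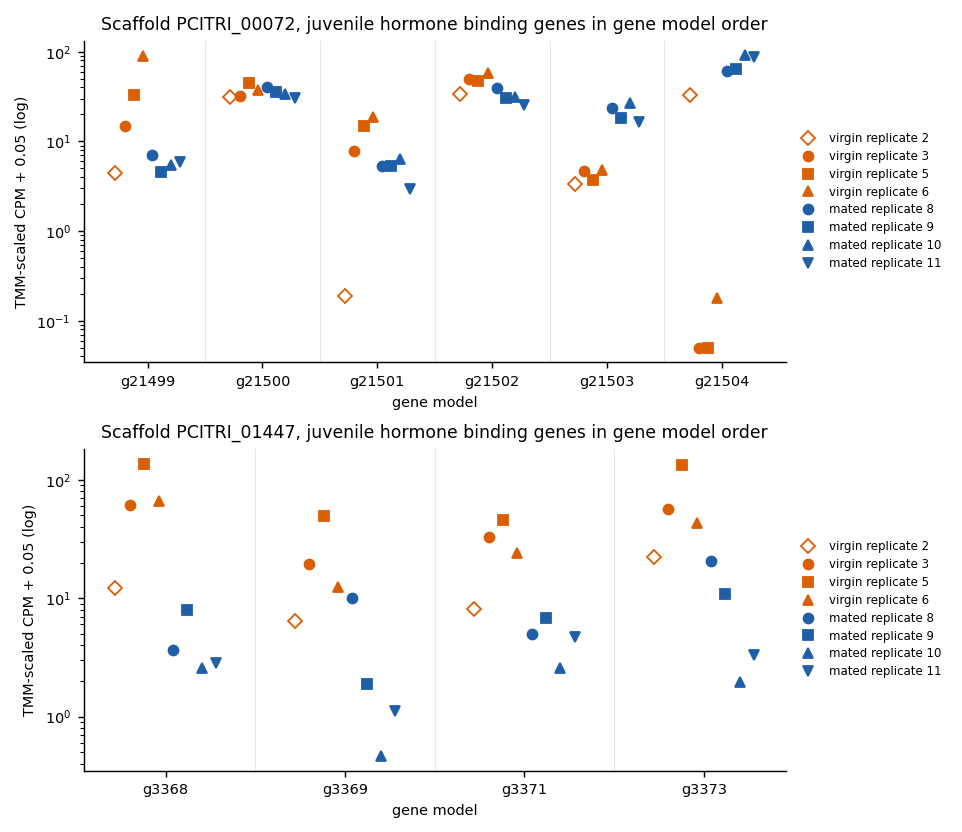
TMM-scaled CPM plus 0.05 (log axis) in each library for the 6 juvenile hormone binding genes of scaffold PCITRI_00072 (top) and the 4 of PCITRI_01447 (bottom), in gene model order. On PCITRI_01447 3 of the 4 genes show no overlap between the groups, and in g3369 mated replicate 8 falls inside the virgin range. On PCITRI_00072 the fitted log2 fold changes run from 2.64 (g21499) to -3.19 (g21504, not called).

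Scaffold PCITRI_00072 holds 6 juvenile hormone binding models in a row, g21499 to g21504, among 30 models. These neighbours went in opposite directions. At the start of the row, g21499 had 4.38, 15.0, 32.5 and 89.7 CPM in virgin and 7.08, 4.56, 5.35 and 5.82 CPM in mated libraries. Virgin replicate 2 was below all mated libraries and virgin replicate 6 far above every other library. The log2 fold change of 2.64 (SE 0.74) passed the test (edgeR adjusted p = 0.0241), but not without virgin replicate 6 (1.61, adjusted p = 0.0594), or without mated replicate 9, 10 or 11 (0.0610, 0.0650 and 0.0623), nor in limma voom (1.94, adjusted p = 0.124).

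The next model, g21500, was at 31.0, 31.7, 45.0 and 37.8 CPM in virgin and 40.3, 35.5, 34.1 and 30.2 CPM in mated libraries. The groups overlapped almost fully, and the log2 fold change was 0.05 (SE 0.15, edgeR adjusted p = 0.788). For g21501 the values were 0.140, 7.76, 14.8 and 18.7 CPM in virgin and 5.29, 5.31, 6.24 and 2.90 CPM in mated libraries. Virgin replicate 2, with 5 counts, was the lowest of all and the other 3 virgin libraries were above all mated ones. The log2 fold change was 1.07 (SE 0.93, edgeR adjusted p = 0.370) with all libraries and 1.47 (SE 0.35, adjusted p = 0.00742) without virgin replicate 2. Levels of g21502 ran at 33.5, 50.1, 46.7 and 58.4 CPM in virgin and 39.4, 30.2, 31.1 and 25.6 CPM in mated libraries. Only virgin replicate 2 and mated replicate 8 overlapped. Its small rise (0.58, SE 0.19, edgeR adjusted p = 0.0370) was lost when any library other than virgin replicate 2 or mated replicate 8 was left out (adjusted p = 0.0745 to 0.105), with upper-quartile scaling (0.0647) and with no filter on low counts (0.0556).

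Of the last pair of the row, g21503 was lower in virgin females and g21504 did not pass in edgeR with all libraries. Levels of g21503 were 3.31, 4.58, 3.69 and 4.72 CPM in virgin and 23.5, 18.0, 26.8 and 16.4 CPM in mated libraries. The groups stood well apart, and virgin replicate 2 lay with the other virgin libraries here. The mean was 4.08 ± 0.68 CPM (SD, n = 4) against 21.2 ± 4.81 CPM (n = 4), a log2 fold change of -2.38 (SE 0.20, edgeR adjusted p = 0.000763). Its neighbour g21504 had 1182, 0, 0 and 5 raw counts in virgin and 2182, 2621, 4381 and 2996 in mated libraries, or 33.2, 0, 0 and 0.130 CPM against 61.8, 63.9, 91.2 and 86.8 CPM. Virgin replicate 2 thus lay between the groups, below every mated library, while the gene was all but undetected in the other 3 virgin libraries. With all libraries the log2 fold change was -3.19 (SE 1.63, edgeR adjusted p = 0.165). Limma voom did call the gene lower with all libraries (adjusted p = 0.00426), as did voom with quality weights (adjusted p = 5.87e-05). Without virgin replicate 2 edgeR also called the gene lower (adjusted p = 3.97e-05). The fitted value of -10.59 then rests on 5 counts in the virgin group and depends on the prior count, so it is no bound.

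Of the other 24 models on PCITRI_00072, 16 were tested, of which 5 were higher, 3 lower and 8 not called. Juvenile hormone binding genes on the other 15 scaffolds were single models.

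Among those single models, 4 were higher in virgin females: g4125, g4499, g21998 and g2643. Levels of g4125 were 6.49, 21.0, 14.7 and 28.0 CPM in virgin and 2.75, 4.83, 1.75 and 2.58 CPM in mated libraries, without overlap (log2 fold change 2.56, SE 0.46, edgeR adjusted p = 0.00406). For g4499 they were 2.87, 5.56, 8.90 and 22.5 CPM against 2.83, 1.58, 1.52 and 1.65 CPM. Virgin replicate 2 lay just above mated replicate 8, and the log2 fold change of 2.39 (SE 0.58, edgeR adjusted p = 0.0129) was 1.61 without virgin replicate 6, where the call held. Levels of g21998 were 19.4, 39.8, 35.8 and 41.3 CPM against 10.9, 15.0, 8.87 and 11.4 CPM, with virgin replicate 2 well below the other virgin libraries. The change was smaller and had a smaller error (1.56, SE 0.26, edgeR adjusted p = 0.00277). For g21998 the groups did not overlap. The gene g2643, named after its values were seen, had 25.0, 66.0, 62.9 and 97.5 CPM against 19.1, 29.4, 19.1 and 22.5 CPM, and virgin replicate 2 fell inside the mated range (log2 fold change 1.48, SE 0.36, edgeR adjusted p = 0.0117).

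Besides g21503, 2 genes were lower in virgin females. The levels of g10314 were 9.07, 2.85, 4.41 and 6.86 CPM in virgin and 16.9, 40.9, 45.6 and 42.8 CPM in mated libraries. No libraries overlapped, with virgin replicate 2 the highest virgin and mated replicate 8 the lowest mated library. The mean was 5.80 ± 2.74 CPM (SD, n = 4) against 36.6 ± 13.2 CPM (n = 4), a log2 fold change of -2.66 (SE 0.41, edgeR adjusted p = 0.00248). A milder fall was seen for g30249, with 61.5, 49.3, 30.9 and 46.4 CPM against 84.1, 96.1, 80.5 and 103 CPM and no overlap (-0.95, SE 0.20, edgeR adjusted p = 0.00591).

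The 13 genes that did not pass included some with large fitted changes and large errors. Named after their values were seen, g3527 had 3, 95, 287 and 1427 raw counts in virgin and 91, 2, 37 and 6 in mated libraries, and g32903 had 2, 64, 102 and 426 against 43, 14, 45 and 6. In both genes virgin replicate 6 was the highest library and virgin replicate 2 was at the low end of the mated range or below it. Their log2 fold changes were 3.75 (SE 1.44, edgeR adjusted p = 0.0789) and 2.57 (SE 1.11, adjusted p = 0.0973). Both were called without virgin replicate 2, at 4.16 (adjusted p = 0.0191) and 2.96 (adjusted p = 0.0125), and also by DESeq2 (adjusted p = 0.0298 and 0.0334).

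Another pair of genes, g31697 and g20950, was well counted in every library and did not pass. For g31697 the virgin libraries held 160, 232, 92.0 and 231 CPM and the mated ones 206, 209, 199 and 196 CPM. The mated libraries were tight and lay inside the virgin range (log2 fold change -0.18, SE 0.26, edgeR adjusted p = 0.60). For g20950 the values were 83.2, 219, 194 and 272 CPM against 164, 159, 125 and 114 CPM. Virgin replicate 2 was the lowest library and the other virgin libraries were the highest, so that the change of 0.45 (SE 0.32, edgeR adjusted p = 0.269) was called without it (0.69, adjusted p = 0.00838). With all libraries, limma voom with quality weights also called g20950 (0.75, adjusted p = 0.00736). The remaining 5 genes, g27950, g22812, g30211, g23672 and g37455, had log2 fold changes of -0.48 to 1.26. Of these only g27950 was called in any alternative, without mated replicate 9 (1.93, adjusted p = 0.0228).

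Virgin replicate 2 departed from the other virgin libraries in most of these genes. It lay outside the range of the other 3 virgin libraries for 22 of 25 (88.0%), below it for 18 and above it for 4, against 77.5% outside over all tested genes. Virgin replicate 6 was the highest virgin library for 14 of 25, and likewise for 14 of the 25 receptor genes. The summed level of the family was 656 CPM in virgin replicate 2, 1099 to 1302 CPM in the other virgin libraries and 826 to 978 CPM in the mated libraries. Without virgin replicate 2, 14 genes were higher and 4 lower in virgin females. The shares of 56.0% and 16.0% compare with 31.4% and 30.6% of all tested genes in the same fit, and with 31.9% and 33.5% of those in the annotated table. The genes added on the higher side were g3369, g3527, g32903, g20950 and g21501, and g21504 was added on the lower side. With virgin replicate 2 set aside from the CPM given here, 18 of 25 genes had no overlap between the groups (72.0%), against 64.5% of all tested genes. Among those 18, virgin replicate 2 lay between the groups for 9, within the mated range for 4 and outside both ranges for 5.

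**Figure D3:**
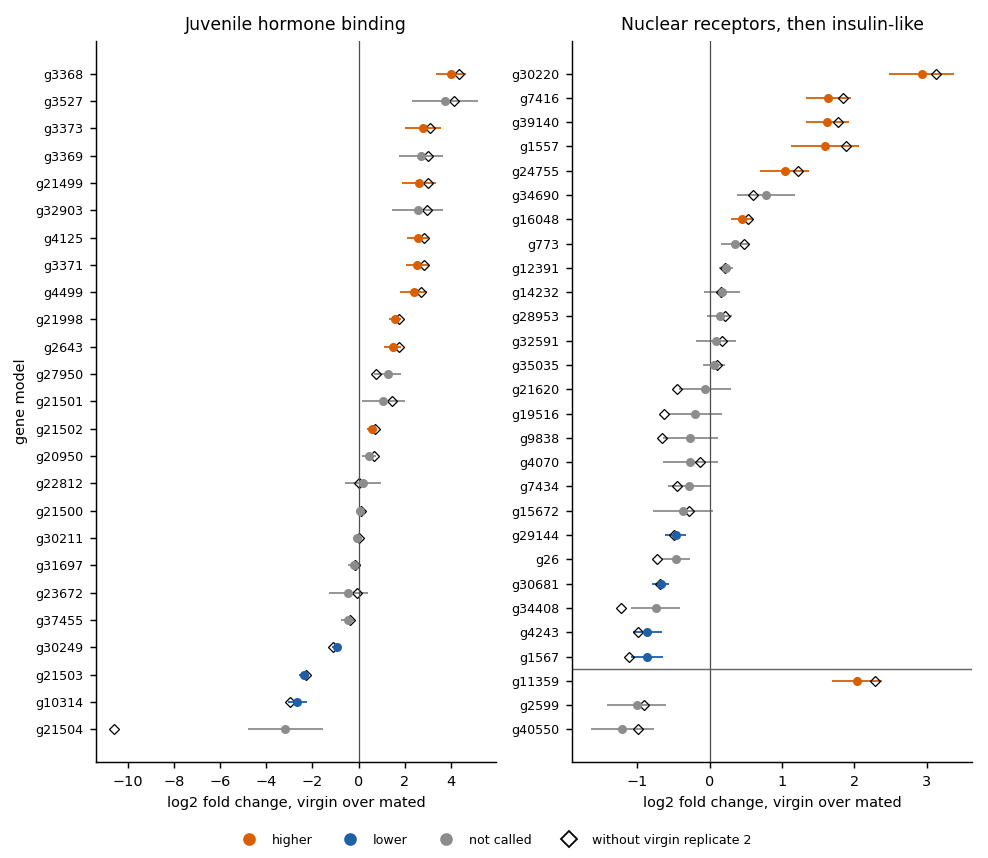
Fitted log2 fold change of virgin over mated females for the 53 genes (filled points, bars ± 1 SE), coloured by call, with the value without virgin replicate 2 as open diamonds. Juvenile hormone binding genes (left) spread from -3.19 to 4.03, while 24 of the 25 nuclear hormone receptor genes (right, on a narrower scale) stay between -0.86 and 1.64.

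Nuclear hormone receptor genes changed less. Of the 25, 6 were higher and 4 lower in virgin females, and 15 did not pass the test. The shares of 24.0% and 16.0% compare with 26.4% and 21.3% of all tested genes, and their median log2 fold change was 0.06. A change beyond 1 was fitted for 5 of the 25 (20%, against 34.1% of all tested genes) and beyond 2 for 1. The groups did not overlap for 7 genes (28.0%, against 43.2% of all tested genes). The number of genes called higher was 3 when virgin replicate 5 or 6 or mated replicate 10 or 11 was left out.

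The largest change among receptor genes was that of g30220, listed under the ligand-binding domain. It had 2.61, 4.71, 2.79 and 8.48 CPM in virgin and 0.453, 0.804, 0.395 and 0.782 CPM in mated libraries. All virgin libraries were above all mated ones, and virgin replicate 6 was the highest. No mated library reached 1 CPM, so g30220 met the filter of the annotated table only through the virgin libraries. The mean was 4.65 ± 2.73 CPM (SD, n = 4) against 0.61 ± 0.21 CPM (n = 4), a log2 fold change of 2.93 (SE 0.45, edgeR adjusted p = 0.00236).

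All other receptor genes that were higher carried the zinc finger entry. For g7416 the virgin libraries held 1.43, 2.91, 3.04 and 3.76 CPM and the mated libraries 0.963, 0.950, 0.958 and 0.695 CPM, without overlap (log2 fold change 1.64, SE 0.31, edgeR adjusted p = 0.00447). Levels of g39140 were 3.99, 5.79, 6.91 and 7.41 CPM against 1.27, 2.85, 1.75 and 1.91 CPM, also without overlap (1.63, SE 0.30, edgeR adjusted p = 0.00390). In both genes virgin replicate 2 was the lowest virgin library. With mated levels near 1 CPM or below, g7416 met the filter of the annotated table only with the virgin libraries. The remaining 3, g1557, g24755 and g16048, named after their values were seen, had log2 fold changes of 1.60, 1.04 and 0.45 (edgeR adjusted p = 0.0252, 0.0368 and 0.0370). None of them was called without virgin replicate 5 (adjusted p = 0.0650, 0.0936 and 0.0832), and each call was also lost on leaving out virgin replicate 6 or mated replicate 10 or 11 (adjusted p = 0.0513 to 0.118 over the 3 genes). Calls of g1557 and g24755 were lost without mated replicate 9 too (0.0621 and 0.0911), those of g24755 and g16048 without mated replicate 8 (0.0526 and 0.0934), and that of g16048 without virgin replicate 3 (0.0881). In limma voom g1557 and g24755 were not called (0.0657 and 0.0598), and g16048 was not called with upper-quartile scaling (0.0669) or with no filter on low counts (0.0667).

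**Figure D4:**
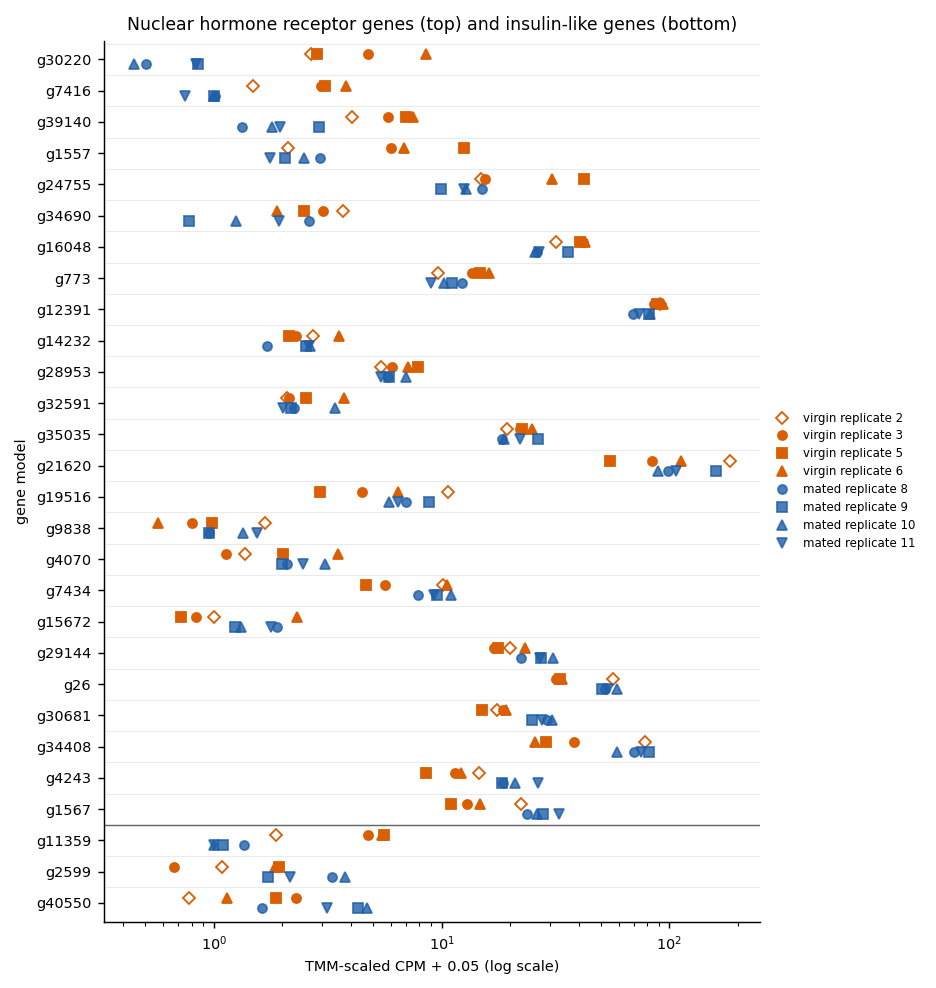
TMM-scaled CPM plus 0.05 (log axis) of the 25 nuclear hormone receptor genes (above the line) and the 3 insulin-like genes (below it) in each library, with virgin libraries in orange and mated libraries in blue. Groups without overlap are seen for 7 receptor genes (28.0%, against 43.2% of all tested genes) and 1 insulin-like gene, among them g30220 at the top and g11359 below the line.

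Receptor genes that were lower changed by less than 1 log2 unit. The most even was g30681, with 17.4, 18.6, 14.9 and 19.2 CPM in virgin and 29.1, 25.0, 30.4 and 27.5 CPM in mated libraries (log2 fold change -0.67, SE 0.12, edgeR adjusted p = 0.00343). Levels of g4243 were 14.6, 11.4, 8.46 and 12.1 CPM against 18.5, 18.3, 21.0 and 26.5 CPM (-0.86, SE 0.20, edgeR adjusted p = 0.00921). For g1567 they were 22.2, 12.9, 10.9 and 14.7 CPM against 23.6, 27.9, 26.1 and 32.7 CPM (-0.86, SE 0.22, edgeR adjusted p = 0.0147). None of these 3 overlapped between the groups, although virgin replicate 2 came within 2 CPM of the mated libraries for g1567. The 2 receptor models on scaffold PCITRI_00030, g1557 and g1567, are the only ones that share a scaffold, and they went in opposite directions. A further gene, g29144, named after its values were seen, fell by 0.46 on the log2 scale (SE 0.15, edgeR adjusted p = 0.0298). Its call was lost without virgin replicate 3 or 5 (adjusted p = 0.0844 and 0.0609) and on leaving out mated replicate 9, 10 or 11 (0.0625, 0.0724 and 0.0675).

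The 15 receptor genes that did not pass had log2 fold changes of -0.74 to 0.78. Of these, g12391 had 90.7, 85.8, 87.7 and 94.1 CPM in virgin and 68.8, 81.5, 82.2 and 73.6 CPM in mated libraries. Its groups did not overlap, but the difference was small (0.23, SE 0.09, edgeR adjusted p = 0.0675), although DESeq2 called it (0.21, adjusted p = 0.0451). For g21620 the values were 185, 83.9, 54.7 and 113 CPM against 98.6, 160, 89.1 and 106 CPM, and the groups overlapped widely (-0.06, SE 0.36, edgeR adjusted p = 0.90). Another of these genes, g15672, named after its values were seen, was called lower without virgin replicate 6 alone (-0.90, adjusted p = 0.0456). It met the filter of the annotated table only with the mated libraries.

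Without virgin replicate 2 the receptor genes gained 3 calls, to 7 higher and 6 lower (28.0% and 24.0%, against 31.4% and 30.6% of all tested genes). Each gained gene was named after its values were seen. Levels of g26 were 56.7, 31.8, 32.9 and 33.7 CPM in virgin and 51.9, 50.3, 58.7 and 53.6 CPM in mated libraries, so virgin replicate 2 was within the mated range while the other virgin libraries were far below (-0.72 without it, SE 0.08, adjusted p = 0.000272). The same held for g34408, at 78.0, 37.9, 28.5 and 25.5 CPM against 70.0, 81.1, 58.7 and 75.1 CPM (-1.23, SE 0.16, adjusted p = 0.000589). On the higher side g773 was added (0.47, adjusted p = 0.0198). Other methods called these genes with all libraries too. For g26 these were upper-quartile scaling (adjusted p = 0.0396), DESeq2 (0.0470), limma voom (0.0469) and voom with quality weights (0.000345). For g34408 they were limma voom (0.0449) and voom with quality weights (0.000677), and for g773 only the latter (0.00988). With virgin replicate 2 set aside from the CPM given here, 13 of 25 receptor genes had no overlap (52.0%, against 64.5% of all tested genes).

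The 3 insulin-like genes were detected in all libraries, at 0.622 to 5.55 CPM. The level of g11359 was 1.83, 4.71, 5.55 and 5.40 CPM in virgin and 1.30, 1.05, 0.958 and 0.956 CPM in mated libraries. All virgin libraries were above the mated ones, with virgin replicate 2 nearest to them. The gene met the filter of the annotated table only with the virgin libraries. The mean was 4.37 ± 1.74 CPM (SD, n = 4) against 1.07 ± 0.16 CPM (n = 4), a log2 fold change of 2.03 (SE 0.35, edgeR adjusted p = 0.00327). The other 2 had fitted values of the opposite sign that did not pass the test. For g40550 the libraries held 0.730, 2.26, 1.83 and 1.10 CPM against 1.59, 4.24, 4.66 and 3.10 CPM (-1.20, SE 0.44, edgeR adjusted p = 0.0528). It was called without virgin replicate 3 (-1.47, adjusted p = 0.0450) or mated replicate 8 (-1.45, adjusted p = 0.0252). For g2599 they held 1.04, 0.622, 1.88 and 1.80 CPM against 3.26, 1.68, 3.71 and 2.11 CPM (-1.004, SE 0.41, edgeR adjusted p = 0.0733). In both genes the groups overlapped, and DESeq2 called both lower (adjusted p = 0.0190 and 0.0353).

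The same hormone pathways include genes outside these entries. Proteins with PAS domains, a class that in *Drosophila* holds the juvenile hormone receptor Methoprene-tolerant, counted 2 higher, 3 lower and 4 not called of 9 (22.2% and 33.3%, against 26.4% and 21.3% of all tested genes). The higher ones, g14363 and g14362, are neighbours on scaffold PCITRI_04003 (log2 fold changes 0.99 and 0.58, edgeR adjusted p = 0.00432 and 0.00859). Of the lower ones, g9935 changed by -0.87 (adjusted p = 0.00225) and g4431 by -0.94 (adjusted p = 0.00586). No gene of the table (0) carried the searched epoxide hydrolase entries, a class that includes enzymes of juvenile hormone breakdown.

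Genes of the DUF227 entry, the family of the silkworm enzyme that phosphorylates ecdysteroids, counted 31 higher, 3 lower and 17 not called of 51. The shares of 60.8% and 5.88% compare with 26.4% and 21.3% of all tested genes. Over the tested genes of the annotated table, from which the list was drawn, they were 27.7% and 22.4%. The higher ones of the smallest p were g25768, with 59.6 ± 16.2 CPM (SD, n = 4) in virgin and 11.1 ± 3.04 CPM (n = 4) in mated females (log2 fold change 2.43, edgeR adjusted p = 0.00105), and g11252 (2.39, adjusted p = 0.00117). Levels of g11252 were low, at 1.46 to 2.24 CPM in virgin and 0.250 to 0.414 CPM in mated libraries. That gene met the filter of the annotated table only through the virgin libraries. So did other higher genes, among them g15520, g6820, g23561, g23560 and g23563, named after their values were seen. No mated library reached 1 CPM for any of these. How far the filter shaped the shares was not tested. On the lower side, g30237 was called (adjusted p = 0.00137) at 0 to 0.104 CPM in virgin and 1.45 to 5.37 CPM in mated libraries. The virgin values are around or below the level of 3 counts, so its fitted fold depends on the prior count and is not given. It met the filter only through the mated libraries, as did the lower gene g3570, named after its values were seen. Most members of the family have no known substrate, and which of these models encode a kinase of ecdysteroids is not given.

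Genes of the insulin and growth factor relay (receptor L-domain, PTB, phosphoinositide kinase and fork head entries) counted 2 higher, 11 lower and 14 not called of 27 (7.41% and 40.7%, against 26.4% and 21.3% of all tested genes). The lower ones included the fork head genes g9333 (-3.34, edgeR adjusted p = 0.00153) and g9334 (-3.39, adjusted p = 0.00170), and the higher ones were g10102, also of the fork head entry (0.82, adjusted p = 0.0168), and g26052 of the phosphoinositide kinase entries (0.34, adjusted p = 0.0333). No virgin library reached 1 CPM for g9333 or g9334, so both met the filter of the annotated table only through the mated libraries. Fork head genes include many factors of embryonic patterning besides the insulin target FOXO, and which of them these models encode is not given. The remaining entries of this list do not tell insulin signalling from other pathways either, so the counts are no measure of insulin signalling. Among other entries that name hormones or steroids, 4 were higher, 1 lower and 5 not called of 10, so that 50.0% were called, against 47.7% of all tested genes. The higher ones of the smallest p were g32850 of the cytochrome b5-like heme/steroid binding entry (0.78, edgeR adjusted p = 0.00220) and g34718 of the steroid 4-dehydrogenase entry (0.77, adjusted p = 0.00243). The lower one, g2196, carries the extracellular hormone receptor domain of family 2 G protein-coupled receptors and was at 13.8 ± 2.02 CPM (SD, n = 4) in virgin against 88.4 ± 15.5 CPM (n = 4) in mated females (-2.68, SE 0.16, adjusted p = 0.000437).

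Yolk protein genes are under the control of juvenile hormone or ecdysteroids in other insects. The yolk and lipoprotein list counted 12 higher, 7 lower and 23 not called of 42. Its shares of 28.6% and 16.7% compare with 26.4% and 21.3% of all tested genes. Most of the list carries the lipase/vitellogenin entry, so these counts are not those of yolk proteins alone. They weigh each gene alike, whereas the list summed to 2985 to 25056 CPM in virgin and 64492 to 136760 CPM in mated libraries. On the lower side stood g37912 of the lipase/vitellogenin entry, with 1061 ± 921 CPM (SD, n = 4) in virgin and 14560 ± 3692 CPM (n = 4) in mated females (-3.78, edgeR adjusted p = 0.00246). That entry joins lipases and vitellogenins, and g1027 of the same entry was higher in virgin females (2.87, adjusted p = 0.00105).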

How the data were processed

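RNA-seq was done by the study on polyadenylated RNA of 4 virgin and 4 mated pools. The counts deposited by the authors give for each gene model how many read pairs mapped to it uniquely, and were made in CLC Genomics Workbench 10.0.1 against the *Pcitri*.v1 genome (mismatch cost 2, insertion and deletion cost 3, length and similarity fraction 0.9). The libraries were strand-specific, but no source used here says whether counting used strand. Depth was 29667566 to 50301861 pairs. FastQC, limma 3.34.9, edgeR 3.20.9 and R 3.4.2 are named in the submitters' processing notes. The annotated table also holds the authors' log2 fold changes and adjusted p-values, and a further file their log2 CPM. Neither was used. All 17669 genes of the annotated table were over 1 CPM in at least 3 libraries, so every chosen gene had passed such a filter. Of the 53, 44 were over it in at least 3 libraries of each group. Among those that were not, g30220, g7416, g11359, g3527 and g32903 met the filter only with the virgin libraries. Only with the mated ones did g21504, g15672 and g22812 meet it.

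The present tests used edgeR 4.0.16 under R 4.3.3 (filterByExpr, TMM, glmQLFit and glmQLFTest on condition alone). Of 40620 gene models 21179 were tested, all 53 chosen genes among them. P-values were adjusted by Benjamini-Hochberg over all tested genes, and errors are Wald errors. Alternatives were 3 scalings, DESeq2 1.42.0, limma 3.58.1 voom with and without quality weights, 2 filters and leaving out each library.

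The genes and lists were chosen with earlier results of these data known. Named with values were g3368, g21998, g21503 and g10314, the 5 largest called changes each way per list among genes without overlap and of mean log2 CPM 0 or above, the 2 of highest mean CPM per list, the insulin-like genes, those on scaffolds with 3 or more juvenile hormone binding genes, and up to 2 called genes each way of the smallest p per further list. All others, g27950, g22812, g30211, g23672, g37455, g14232, g32591, g35035, g19516 and those so marked in the text, were named after their values were seen.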

Additional observations from a re-analysis of the deposited data

Results flagged for a closer look

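In 8 of 106 groups of 4 libraries, a single library of a chosen gene stood far from the other 3 of its group by Dixon's test, which chance gives in about 1 of 20 groups. Mated replicate 8 accounted for 4 of them. It was high for g3369 (10.1 CPM, others 0.416 to 1.83) and g4499 (2.83 CPM, others 1.52 to 1.65). It was low for g10314 (16.9 CPM, others 40.9 to 45.6) and g14232, a receptor gene (1.67 CPM, others 2.49 to 2.60). In the first 3 of these its value lay toward the virgin libraries. Over all tested genes, mated replicate 8 was outside the range of the other mated libraries for 55.4%. The same share was 52.4%, 49.2% and 42.8% for mated replicates 9, 10 and 11. How often Dixon's test picks each library over all tested genes was not computed. Virgin replicate 2 was high for g21504 (33.2 CPM, others 0 to 0.130) and for g26 (56.7 CPM, others 31.8 to 33.7), where it lay toward the mated libraries. Among receptor genes, mated replicate 11 was low for g7416 (0.695 CPM, others 0.950 to 0.963) and mated replicate 9 high for g16048 (35.9 CPM, others 25.6 to 26.8). The cause was not tested.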

How the results depend on the processing

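Of 23 genes called among the 53, 16 kept the same call in all 16 alternatives. With a library left out, juvenile hormone binding genes counted 6 to 14 higher and 3 to 4 lower, and receptor genes 3 to 7 higher and 3 to 6 lower. The highest count of 14 came without virgin replicate 2, and receptor genes fell to 3 higher without virgin replicate 5 or 6 or mated replicate 10 or 11. The other alternatives gave 8 to 13 and 3 to 4 juvenile hormone binding genes and 4 to 8 and 4 to 6 receptor genes. Signs changed only for genes that were not called. Log2 fold changes with a library left out ran from -0.33 to 1.04 for g22812, from -0.077 to 0.12 for g21500, from -0.16 to 0.10 for g30211, from -0.32 to 0.030 for g31697, from -0.12 to 0.27 for g32591, from -0.025 to 0.16 for g35035, from -0.45 to 0.14 for g21620 and from -0.63 to 0.013 for g19516. Upper-quartile scaling gave -0.0272 for g21500 and -0.0208 for g35035, quality weights 0.0726 for g30211 and voom -0.15 for g21501. The cause was not tested. Of the further lists, counts moved by over 1.5 times in some alternatives. Insulin-like genes called lower numbered 0 in edgeR with all libraries and TMM scaling (2 at an unadjusted p under 0.05), 1 with upper-quartile scaling, without virgin replicate 3 or without mated replicate 8, and 2 in DESeq2 and with quality weights, and DUF227 genes called lower 3 to 7. Insulin relay genes called higher numbered 1 to 2 and lower up to 17. Hormone or steroid entries counted down to 2 higher and up to 2 lower. Genes of the yolk and lipoprotein list counted down to 7 higher and up to 12 lower. Genes near 1 CPM, among them the insulin-like genes and g30220, rest on few counts. No paired analysis was possible because the virgin and mated replicates share no numbers.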
